A study of Mus musculus with 10 samples.

Results

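The genes described here are 7 mouse genes of arginine use and macrophage activation, Arg1, Arg2, Nos2, Ass1, Odc1, Retnla and Wfdc17, out of 36172 genes in the deposited expression table. They were picked by symbol, and the choice was made with results of these data known, above all the difference between the primary cell types B and A. For these 7 genes, B against A and C1 against B are therefore given as a description, with no test. Tests are given for the comparisons among the passaged types and for other genes of the pathways.

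RNA was sequenced from cells of the left atrial appendage of C57BL/6 mice aged 8 to 12 weeks, in 5 cell types with 2 libraries each. B cells were primary cells, c-kit+/CD45+, from tissue treated weakly with enzyme (trypsin at 0.05%). C1, C2 and C3 cells were B-type cells at passage 6, 8 and 10. C1 cells were c-kit+/CD45-, while C2 and C3 cells were c-kit-/CD45-. A cells were primary cells, c-kit+/CD45-, from tissue treated strongly (trypsin at 0.25%). Both treatments used collagenase D at 0.1% in 3 rounds of 5 min, and all the cells were grown in a medium with serum and 2-mercaptoethanol. B and A therefore differed in digestion and in surface markers at once, and the part of each cannot be told apart. B and C1 likewise differed in passage and in CD45 together. C1 differed from C2 and from C3 in passage and in c-kit together, and again the part of each cannot be told apart. The labels give 2 replicates a type and do not say whether they came from separate animals or cultures, so that the p-values measure the spread between these libraries, which may be technical.

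Arginine has competing fates in macrophages. Arginase, encoded by Arg1 in the cytosol and by Arg2 in mitochondria, splits arginine into ornithine and urea, and ornithine decarboxylase, encoded by Odc1, turns ornithine into putrescine, the first polyamine. Inducible nitric oxide synthase, encoded by Nos2, turns arginine into nitric oxide and citrulline, and argininosuccinate synthase, encoded by Ass1, starts the route from citrulline back to arginine. In mice, Nos2 is a common mark of classical activation by interferon and bacterial products, while Arg1 and Retnla, which encodes the secreted protein Fizz1, are common marks of alternative activation by interleukin 4 and interleukin 13. Wfdc17 encodes a small secreted protein of the whey acidic protein (WAP) family, made by activated mouse macrophages.

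RefSeq promoter sequence was at hand for 4 of the 7 genes, and 3 are shown because they belong to the gene with the clearest B-type pattern besides Arg1 (Wfdc17), to a textbook activation mark at a single value in every library (Retnla), and to the gene that rose in the last passage (Odc1). Each line holds the 250 bases before the RefSeq start (build GRCm38.p6, + strand, 5′ to 3′): chr11:83703806-83704055 for Wfdc17, chr16:48842359-48842608 for Retnla and chr12:17544623-17544872 for Odc1. Capitals mark matches, on either strand, to 8 motifs searched.
Wfdc17: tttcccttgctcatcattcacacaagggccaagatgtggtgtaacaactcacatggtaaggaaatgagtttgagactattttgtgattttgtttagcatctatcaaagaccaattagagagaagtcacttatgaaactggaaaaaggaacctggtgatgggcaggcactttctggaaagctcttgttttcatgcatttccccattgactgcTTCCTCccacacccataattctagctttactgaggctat
Retnla: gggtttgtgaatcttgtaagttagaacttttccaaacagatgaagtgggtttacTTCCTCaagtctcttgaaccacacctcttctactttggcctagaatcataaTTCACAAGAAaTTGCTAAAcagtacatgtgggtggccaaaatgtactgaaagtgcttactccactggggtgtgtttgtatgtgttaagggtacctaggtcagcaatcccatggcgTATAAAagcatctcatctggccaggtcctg
Odc1: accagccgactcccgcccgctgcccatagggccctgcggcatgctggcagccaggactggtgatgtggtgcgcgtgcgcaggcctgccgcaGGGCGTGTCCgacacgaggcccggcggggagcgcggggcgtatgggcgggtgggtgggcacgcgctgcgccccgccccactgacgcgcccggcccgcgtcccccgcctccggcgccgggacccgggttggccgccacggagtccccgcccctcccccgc
The motifs were that of the TATA box, spelled TATAAA, and TTCNNNNGAA (STAT6), GAGGAA (PU.1 core), TTGCNNAA (C/EBP), GGGNNNNNCC (NF-kB), TGANTCA (AP-1), CACGTG (E-box) and GAAANNGAAA (interferon-response core). In Wfdc17 the capitals mark a PU.1 core on the minus strand at bases -39 to -34, counted back from the start, a motif that 23.25% of 32851 mouse promoter windows of this length hold. In Retnla they mark, from 5′ to 3′, a PU.1 core on the minus strand (-196 to -191), a STAT6 motif (-145 to -136; 5.85% of windows), a C/EBP motif (-134 to -127; 9.56%) and a TATA box (-30 to -25; 12.37%). In Odc1 they mark an NF-kB motif (-159 to -150), which 45.8% of windows hold. G and C made up 41.2% of the bases in Wfdc17, 42.8% in Retnla and 80.0% in Odc1, against a median of 52.4% over all windows. The GENCODE starts given below for these 3 genes lie inside the windows, upstream of the RefSeq starts. The end of each window, with the Wfdc17 match and the Retnla TATA box, is thus inside the GENCODE gene. A match is a description of letters and not of a bound site.

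Values in the deposited table are log2 values with each gene's median at 0. They were read as normalized reads, meaning a read count scaled by library depth, with a floor of 1. For genes whose lowest value was shared by several libraries, taken as the floor, the normalized reads themselves could be recovered, which was the case for Arg1, Arg2, Nos2 and Wfdc17. For Ass1 and Odc1 only differences between libraries are known. A single read was worth 0.199 normalized reads in the deepest library (C3 replicate 2) and 2.29 in the shallowest (B replicate 1), an 11.5-fold range of depth, and the limit that a count of 0 allows, 3 reads, was 0.596 to 6.88 normalized reads. These limits cover counting error only. The A libraries stood apart from each other, with a root mean square difference of 1.06 on the log2 scale over the tested genes, against 0.435 to 0.52 between the replicates of the other types. Sums of markers here and below are of the normalized reads of each gene above its floor of 1. Those of the macrophage markers of known level (5 of 11) were 25724 and 24969 in B, 0.0351 to 4.12 in the 6 passaged libraries, and 14.5 and 438 in A replicates 1 and 2. The mast cell markers Tpsb2, Tpsab1, Fcer1a and Ms4a2, the neutrophil markers S100a9, Ly6g and Ngp and the lymphocyte markers Cd3e, Cd3d and Cd8a were at a single value in every library. The neutrophil markers of known level summed to 109 and 105 normalized reads in B, at most 1.04 in the passaged libraries, and 1.36 and 11.4 in A. Those of lymphocytes summed to 43.9 and 32.4 in B, at most 2.14 in the passaged libraries, and 0 and 4.66 in A, and the part of either in the B values was not tested.

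Arg1 (Entrez 11846, GRCm38 chr10:24915221-24927484, minus strand) was high in B and near or below the read limit nearly everywhere else. It had 14312 and 14875 normalized reads in the B libraries, about 6239 and 8216 reads. The C1 libraries had 2.02 and 1.00, the C2 libraries 1.00 and 3.04, and the C3 libraries 3.37 and 1.38, the last pair from about 13 and 6.94 reads in the deepest libraries. It had 1.68 in A replicate 1, a single read, and 191 in A replicate 2, about 99.8 reads. The B libraries lay above all other libraries with no overlap, and the A libraries lay far apart from each other. The mean in B was 76.3-fold that of A replicate 2. It was 2894-fold the limit of 3 reads in A replicate 1, 4827-fold that in C1 and 2383-fold that in C2. The higher limit of the 2 libraries was taken for C1 and C2. These folds are not lower bounds, since the limit is that of a count of 0 and some of these libraries held reads. Against C3 the ratio of means was 6148. Among the passaged types, no difference passed the test: C2 minus C1 was 0.30 (adjusted p = 0.939, limma on all 10 libraries with Benjamini-Hochberg adjustment over 14254 genes), C3 minus C2 was 0.30 (adjusted p = 0.934) and C3 minus C1 was 0.60 (adjusted p = 0.841). The spread in that fit is shared with A, and the SD of Arg1 on the log2 scale was 0.04 in B and 4.83 in A.

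Arg2 (Entrez 11847, chr12:79130777-79156301, plus strand), the mitochondrial arginase, gave too few reads to compare. It was at the floor in 7 libraries. The remaining libraries had 6.51 normalized reads in B replicate 2, about 3.6 reads, and 1.17 and 1.30 in C1. B replicate 2 lay just above its limit of 3 reads, 5.43 normalized reads, and the C1 libraries lay under theirs.

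Nos2 (Entrez 18126, chr11:78920787-78960254, plus strand) also had its highest values in B, at low read numbers. It had 47.5 and 41.5 normalized reads in B, about 20.7 and 22.9 reads, and was at the floor in the 6 passaged libraries. In A it was at the floor in replicate 1 and at 22.7 normalized reads, about 11.8 reads, in replicate 2. The mean in B was at least 14.7-fold above C1, at least 7.26-fold above C2 and at least 44.5-fold above C3. Against A replicate 2 the ratio was 1.96, with the 2 B libraries above it and A replicate 1 below.

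**Figure D1:**
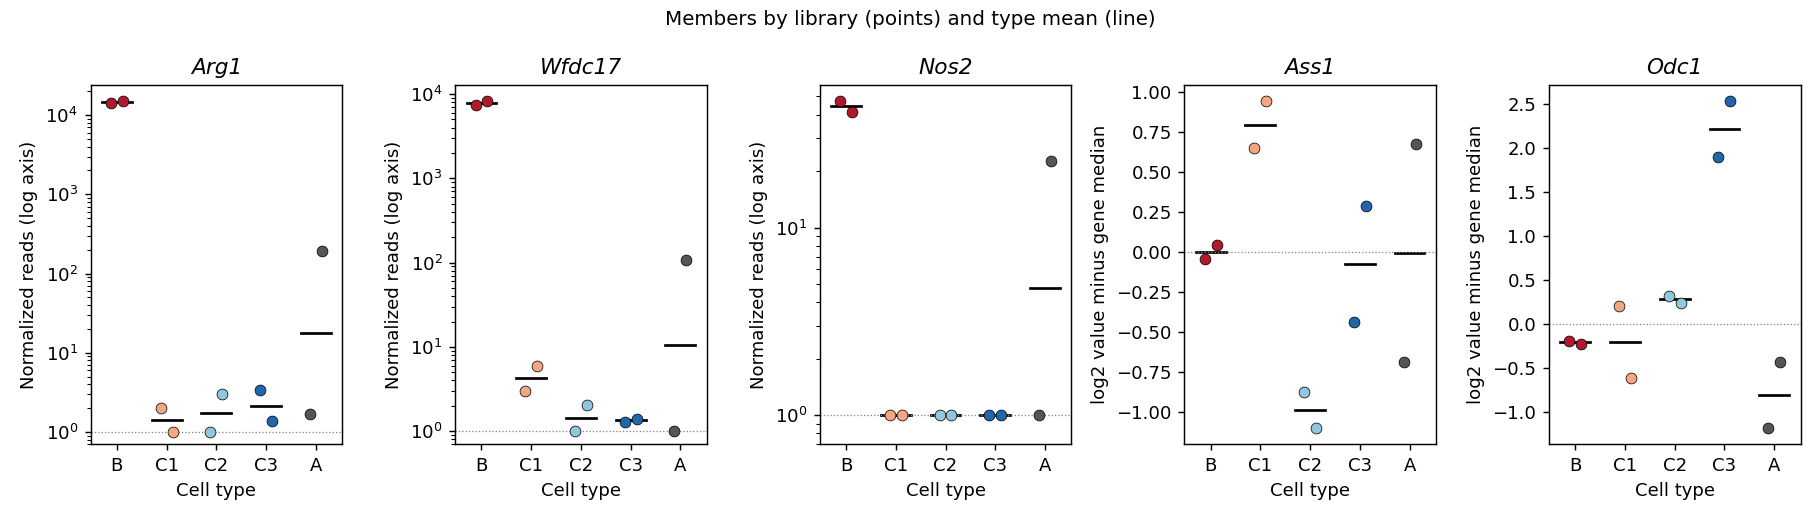
Values of 5 of the 7 genes in each library, with cell types in the order B, C1, C2, C3 and A on the x axis and replicate 1 left of replicate 2. Arg1, Wfdc17 and Nos2 are in normalized reads on a log axis with the floor of 1 dotted, Ass1 and Odc1 as the log2 value minus the gene's median, and the bars are means of the log values of 2 libraries; the B libraries stand far above the rest for Arg1 and Wfdc17, and C3 stands highest for Odc1.

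A replicate 2 held a much larger part of the B level for Nos2 than for the macrophage markers, Arg1 or Wfdc17, a feature singled out after its values were seen. The B mean of Nos2 was above that library by 0.97 on the log2 scale, so that the library held 51.1% of B. The 11 macrophage markers were higher in B by 4.13 to 6.55, with a median of 5.64, so that A replicate 2 held 1.07% to 5.71% of B with a median of 2.01%. Arg1 lay at 1.31% and Wfdc17 at 1.39% of B, inside the range of the markers, and Nos2 far outside it. Nos2 rests on about 11.8 reads there, and in A replicate 1, where it was at the floor, the markers were higher in B by 6.63 to 11.2. Mast cell markers with values summed to 1.29 and 5.17 normalized reads above the floor in B, against 17.5 in A replicate 1 and 205 in A replicate 2. Their part in the Nos2 value was not tested.

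**Figure D2:**
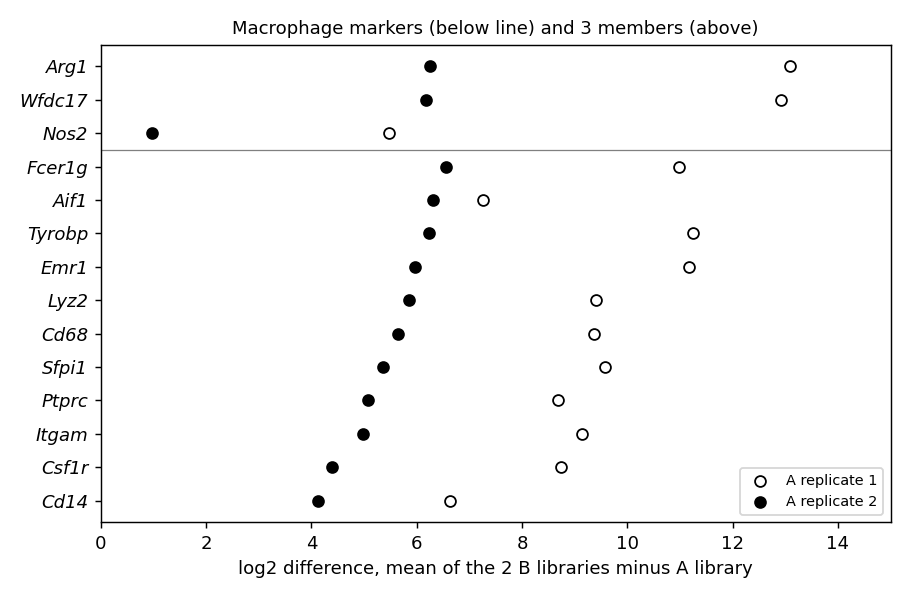
The log2 difference between the mean of the 2 B libraries and each A library (x axis; filled, A replicate 2; open, A replicate 1) for 11 macrophage markers below the line and for Arg1, Wfdc17 and Nos2 above it. In A replicate 2, Arg1 and Wfdc17 lie among the markers at 6.25 and 6.17, and Nos2 lies at 0.97; Nos2, Wfdc17 and Aif1 are at the floor in A replicate 1, so that their open points depend on the floor.

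Wfdc17 (Entrez 100034251, chr11:83703991-83706268, plus strand), whose promoter window is shown above, had nearly the same pattern as Arg1. It had 7407 and 8185 normalized reads in B, 3.02 and 6.01 for C1 (about 3 and 9 reads), 1.00 and 2.07 for C2, and 1.30 and 1.39 for C3. In A it was at the floor in replicate 1 and at 108 in replicate 2. The B libraries again lay above all others. The mean in B was 72.0-fold that of A replicate 2, 1546-fold the limit of 3 reads in A replicate 1 and 1273-fold that in C2. The ratio of means was 1726 against C1 and 5805 against C3.

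The low Wfdc17 values of the passaged types did not differ past the test. C2 minus C1 was -1.57 ± 1.86 (SE, adjusted p = 0.556), C3 minus C2 was -0.10 (adjusted p = 0.992) and C3 minus C1 was -1.67 (adjusted p = 0.494). The C1 libraries lay above those of C2 and C3 with no overlap. Without A replicate 1, and likewise without A replicate 2 or without both, the fit called Wfdc17 lower in C2 than in C1 (adjusted p = 0.0285 without both) and lower in C3 than in C1 (adjusted p = 0.0165 without both). Raising low values to the highest limit of 3 reads left a difference of 0 in each, since all these values lay at or under it.

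Retnla (Entrez 57262, chr16:48842551-48844461, plus strand), whose promoter window is also shown above, had a single value in all 10 libraries, read as the floor of 1 normalized read, which stands for about 3.86 and 5.03 reads in the C3 libraries. Its relatives Retnlb and Retnlg were at a single value as well, and Retn, which encodes resistin, averaged 1.41 normalized reads in B, under its limit. None of the 4 genes could be tested. The shared pattern of Arg1 and Wfdc17 was thus not seen in Retnla, which was not detectable at this depth.

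Of the WAP family besides Wfdc17, 16 of 17 listed genes were in the table, 10 of them at a single value and 3 tested. Slpi, which encodes a secreted inhibitor of leukocyte proteases, averaged 172 normalized reads in C3 against 1.51 in C1, under the limit there (limma, adjusted p = 0.00315), and 24.9 in C2 (C2 against C1, adjusted p = 0.0407, lost without any 1 of the B, C1, C2 or C3 libraries or with no filter on low values). Wfdc2 averaged 19.2 normalized reads in C2, against the floor in C3 and under the limit in C1 at 1.00. It passed the filter on low values through the C2 libraries alone, so no p is given. Neither Slpi nor Wfdc2 was called between B and A or between C1 and B. Wfdc18, the other tested relative, was not called in any comparison.

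Ass1 (Entrez 11898, chr2:31470207-31520672, plus strand) differed between the passaged types C1 and C2 and did not have the B pattern. Its log2 values relative to its median were -0.05 and 0.05 for B, 0.65 and 0.94 for C1, -0.87 and -1.10 for C2, and -0.43 and 0.29 for C3. In A they were -0.69 and 0.68, a spread that took in both B libraries. C1 had the highest mean and C2 the lowest, with no overlap between them, while A replicate 2 lay within the range of C1. Ass1 fell in C2 by 1.78 ± 0.44 (SE) on the log2 scale relative to C1, a 3.44-fold difference (limma, adjusted p = 0.0203). It was the single member called of the 5 tested in that comparison, in which 8.18% of all genes tested were called lower and 20.4% in either direction. Leaving out any of the 4 libraries of C1 and C2 took the adjusted p to between 0.0654 and 0.0989 and ended the call. C3 minus C2 was 0.91 ± 0.44 (adjusted p = 0.136) and C3 minus C1 was -0.87 (adjusted p = 0.14). B and A differed by 0.00 and C1 lay above B by 0.80, given with no test.

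Most of the tested genes that bring arginine into the cell or complete its synthesis were higher in B than in A. Of 10 listed genes of arginine supply and the urea cycle, 6 were tested, while the liver enzymes Otc and Cps1 were at a single value and Nags and Slc25a2 were below the filter on low values. In B relative to A, 4 of the 6 rose and none fell, where 14.5% of all genes tested rose, and the median difference was 1.61 against 0.01 over all genes. Slc25a13, the aspartate-glutamate carrier of the mitochondrion, rose by 3.33 ± 0.28 (adjusted p = 0.000248) on the log2 scale, Slc7a2, a cationic amino acid transporter induced in activated macrophages, by 2.14 ± 0.22 (adjusted p = 0.00058), Slc7a7, a subunit of another arginine transporter, by 2.03 ± 0.32 (adjusted p = 0.00285), and Asl, argininosuccinate lyase, by 1.20 ± 0.18 (adjusted p = 0.00249). Slc7a1, another cationic amino acid transporter, went the other way at -0.99 (limma, adjusted p = 0.0069), short of the difference of 1 that a call needs. The Slc7a7 call was lost when only the 4 libraries of B and A were fitted (adjusted p = 0.058). The macrophage markers were high in the same B libraries, and their part in these values was not tested. In C1 relative to B, Slc25a13 fell by 1.99 and Slc7a7 fell by 1.59, with adjusted p of 0.00128 and 0.00575 (limma), and 21.1% of all genes fell. After quantile normalization Slc7a7 was not called (adjusted p = 0.168). The other 4 genes were not called, among them Slc7a2 at 0.51 (limma, adjusted p = 0.0986) and Asl at -0.39 (adjusted p = 0.114).

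Among the passaged types, the arginine transporters changed in opposite directions. Slc7a1, the transporter that most cell types use, had values relative to its median of -0.86 and -0.95 for C1, 0.33 and -0.09 for C2, and 1.21 and 1.53 for C3. Slc7a2 had 0.83 and 0.42 for C1, -0.07 and 0.10 for C2, and -3.05 and -3.57 for C3. Slc7a7 had 0.46 and 0.59 for C1, -0.88 and -1.14 for C2, and -2.76 and -2.68 for C3. None of the 3 genes showed overlap between C3 and C1, where 34.8% of all genes tested were called. The share of all genes without overlap was not counted. In C3 relative to C1, Slc7a1 rose by 2.28 ± 0.19 (limma, adjusted p = 0.000131), whereas Slc7a2 fell by 3.94 ± 0.22 (adjusted p = 3.05e-05) and Slc7a7 fell by 3.24 ± 0.32 (adjusted p = 0.000234). Slc25a13 rose by 2.31 ± 0.28 (adjusted p = 0.000601), so that 2 of 6 rose and 2 fell, against 17.1% and 17.7% of all genes tested. In C2 relative to C1, Slc25a13 rose by 1.11 (limma, adjusted p = 0.0225), a call lost without C1 replicate 1 or without either C2 library, and Slc7a1 rose by 1.03 (adjusted p = 0.00762), lost without C1 replicate 2, without C2 replicate 1 or after quantile normalization. Slc7a7 fell by 1.54 (adjusted p = 0.011), lost without C1 replicate 2 or without C2 replicate 2. In C3 relative to C2, Slc7a2 fell by 3.33 ± 0.22 (adjusted p = 0.000112) and Slc7a1 rose by 1.25 ± 0.19 (adjusted p = 0.00248). Slc7a7 fell by 1.71 ± 0.32 (adjusted p = 0.0053, and 0.391 after quantile normalization) and Slc25a13 rose by 1.20 ± 0.28 (adjusted p = 0.013, lost without either C2 library or without C3 replicate 1).

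**Figure D3:**
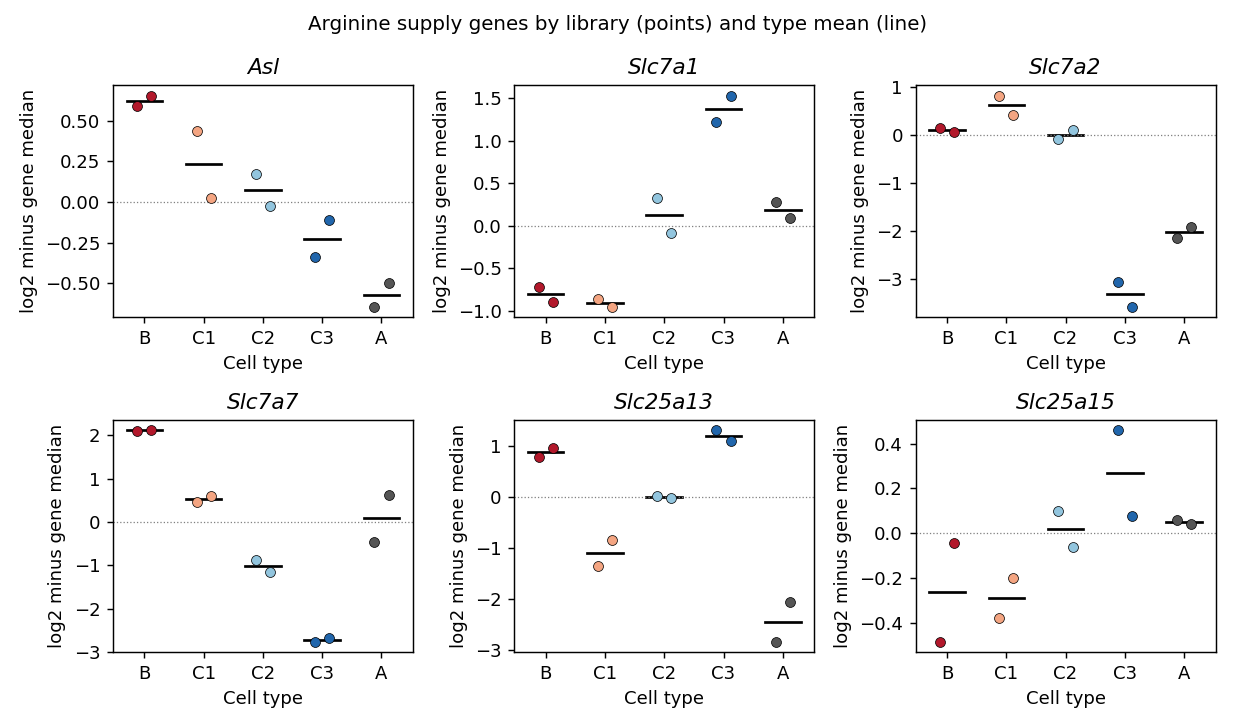
The 6 tested genes of arginine supply and the urea cycle by library, as the log2 value minus the gene's median (y axis), with cell types in the order B, C1, C2, C3 and A, replicate 1 left of replicate 2 and the mean as a bar. Slc7a1 is highest in C3 at 1.21 and 1.53, while Slc7a2 and Slc7a7 are lowest there.

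Odc1 (Entrez 18263, chr12:17544794-17551505, plus strand), whose promoter window is shown above, was highest in C3. Its log2 values relative to its median were -0.20 and -0.23 for B, 0.20 and -0.62 for C1, 0.32 and 0.24 for C2, and 1.90 and 2.53 for C3. In A they were -1.19 and -0.43. Both C3 libraries lay above all other libraries, the C2 libraries lay just above those of C1, and C1 overlapped B and A. Odc1 rose in C3 relative to C2 by 1.94 ± 0.36 (SE), 3.83-fold (limma, adjusted p = 0.00522), and relative to C1 by 2.42 ± 0.36, 5.37-fold (adjusted p = 0.00146). It was the single member of the 5 tested that was called in each of these comparisons, in which 11.6% and 17.1% of all genes tested rose. C2 minus C1 was 0.49 (adjusted p = 0.339). B was above A by 0.60 and C1 above B by 0.01, with no test. The C3 libraries also had the greatest depth, and their epicardial and mesothelial markers had medians of 4.21 and 4.37 relative to the gene medians; the part of either in the Odc1 value was not tested.

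Around Odc1, the polyamine genes moved in both directions in C3. Of 18 listed genes of polyamine synthesis, breakdown and use other than Odc1, 16 were tested. In C3 relative to C2, 5 rose and 6 fell, against 11.6% and 16.2% of all genes tested, and the median difference was 0.53 against 0.00 over all genes. Among the rises were Sat1, the enzyme that acetylates polyamines for export (1.42 ± 0.38, adjusted p = 0.0205), and Azin1, an inhibitor of the antizymes that mark ornithine decarboxylase for breakdown (1.27 ± 0.15, adjusted p = 0.000945). Sat2 fell by 1.97 ± 0.51 (adjusted p = 0.0183) and Paox, a polyamine oxidase, fell by 1.34 ± 0.18 (adjusted p = 0.00134). The other genes that rose were Srm, Amd1 and Sms, and the others that fell were Smox, Mtap, Atp13a2 and Oaz2. The call of Sat1 was lost without either C2 library, without C3 replicate 2 or in a fit of the 4 libraries of C3 and C2 alone, with adjusted p of up to 0.0967. That of Sat2 was lost without any of the 4 libraries or after quantile normalization, with adjusted p of up to 0.0917. The spermidine synthase Srm rose in C3 relative to C1 by 2.00 ± 0.23 (adjusted p = 0.00047), with values of 1.32 and 0.74 in C3 against -0.92 and -1.02 in C1. Amd1, the S-adenosylmethionine decarboxylase that supplies the aminopropyl groups, rose by 1.57 ± 0.21 (adjusted p = 0.000872), although pseudogenes near-identical to it could share its reads. In all, 5 of 16 rose and 3 fell in C3 relative to C1, where 17.1% of all genes rose and 17.7% fell.

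**Figure D4:**
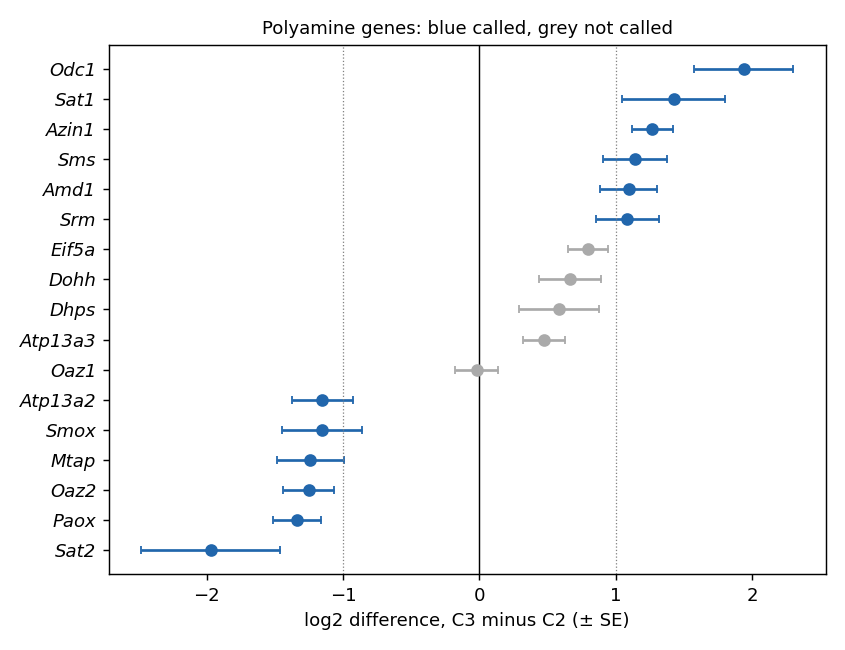
The log2 difference C3 minus C2 (x axis, with the SE of the fit as bars) for Odc1 and the 16 tested polyamine genes, called genes in blue and others in grey, with dotted lines at a difference of 1 in either direction. Odc1 has the greatest rise of these genes at 1.94, and genes lie past the dotted lines on both sides.

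The salvage enzyme of the polyamine route showed the largest change of the list. Mtap, which recovers methionine from the methylthioadenosine that polyamine synthesis leaves, had values relative to its median of 0.37 and 0.39 for C1, -4.03 and -3.64 for C2, and -5.43 and -4.72 for C3. The groups did not overlap. It fell in C2 relative to C1 by 4.21 ± 0.25, 18.6-fold (limma, adjusted p = 0.000111), and fell by 5.45 ± 0.25, 43.8-fold (adjusted p = 1.34e-05) in C3 relative to C1. In the step from C1 to C2, Mtap was 1 of 2 polyamine genes of the 16 tested that fell, where 8.18% of all genes fell. The other was Sat1 (-1.59, adjusted p = 0.0176, lost without any of the 4 libraries), and Paox rose by 1.09 (adjusted p = 0.0042).

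In the primary cells, 6 of the 16 polyamine genes rose and 2 fell in B relative to A, where 14.5% of all genes rose and 12.4% fell. Atp13a2, a lysosomal polyamine exporter, rose by 3.26 ± 0.22 (limma, adjusted p = 0.00012), Smox, spermine oxidase, by 1.85 ± 0.29 (adjusted p = 0.00291, lost after quantile normalization) and Sms, spermine synthase, by 1.78 ± 0.24 (adjusted p = 0.00143). Sat2 fell by 1.95 ± 0.51 (adjusted p = 0.021, lost without A replicate 1, without B replicate 1 or in a fit of the 4 libraries of B and A alone). In C1 relative to B, 4 fell and none rose, where 21.1% of all genes fell. Atp13a2 fell by 4.99 ± 0.22 (adjusted p = 1.17e-05) and Smox fell by 2.77 ± 0.29 (adjusted p = 0.000372). The values of Atp13a2 were -0.46 and -0.66 in C1 against 4.47 and 4.40 in B, and 1.03 and 1.32 in A. Atp13a2 and Smox were highest in the B libraries, in which the macrophage markers were also high, and the part of those markers was not tested. Sms overlapped between B, at 1.27 and 1.10, and C3, at 1.20 and 1.06, where those markers were low. In RNA of bulk cells, fewer cells of a type and less RNA per cell cannot be told apart.

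Other exits of arginine and ornithine, towards proline, creatine and agmatine, gave 9 tested genes of 11 listed. In B relative to A, none rose and 2 fell, where 14.5% of all genes rose and 12.4% fell. Pycr1, a pyrroline-5-carboxylate reductase that makes proline, fell by 2.22 ± 0.27 (limma, adjusted p = 0.000994). Aldh18a1, which makes the substrate of Pycr1 from glutamate, fell by 1.32 ± 0.15 (adjusted p = 0.000684). The same pair rose in C2 relative to C1, Pycr1 by 1.53 ± 0.27 (adjusted p = 0.00564) and Aldh18a1 by 1.46 ± 0.15 (adjusted p = 0.000679), in a comparison in which 12.2% of all genes rose. In C3 relative to C2, Gamt, an enzyme of creatine synthesis, fell by 3.83 ± 0.46 (adjusted p = 0.000913) and Pycr1 fell by 2.54 ± 0.27 (adjusted p = 0.000572). Pycr1 had -1.52 and -1.13 in C3 against 1.15 and 1.28 in C2. None of the 9 genes was called in C1 relative to B, where 33.7% of all genes tested were called by limma, and Oat, the enzyme that takes ornithine towards proline, was called in none of the 5 comparisons.

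Genes that serve nitric oxide synthesis besides Nos2 gave 10 tested genes of 11 listed, with the neuronal synthase Nos1 at a single value. In B relative to A, 3 rose and 2 fell, where 14.5% of all genes rose and 12.4% fell. Nostrin, a trafficking partner of the endothelial synthase, rose by 5.53 ± 0.70 (limma, adjusted p = 0.00122), and Qdpr, which recycles the cofactor tetrahydrobiopterin, by 1.39 ± 0.15 (adjusted p = 0.000581). Ddah2 and Ddah1, which break down methylated arginines that block the synthases, fell by 1.79 ± 0.32 (adjusted p = 0.00463) and 1.27 ± 0.16 (adjusted p = 0.00126). In C1 relative to B, Nostrin fell by 5.69 ± 0.70 (adjusted p = 0.000708) and Ddah1 fell by 1.66 ± 0.16 (adjusted p = 0.000274), while Ddah2 rose by 1.29 (adjusted p = 0.0135, lost without B replicate 1 or without either C1 library). Endothelial markers of known level summed to 334 and 309 normalized reads above the floor in B and to 105 and 171 in A. Their part in the Nostrin value was not tested. In C3 relative to C1, Ddah1 rose by 1.84 ± 0.16 (adjusted p = 0.000153), and Pts, an enzyme of tetrahydrobiopterin synthesis, and Ddah2 fell by 2.33 ± 0.22 (adjusted p = 0.000202) and 2.29 ± 0.32 (adjusted p = 0.00107). The endothelial synthase Nos3 was at the floor in C3, against a mean of 10.3 normalized reads in C2. It passed the filter on low values only through A replicate 2 and C2 replicate 2, so no p is given. Its call was lost without C2 replicate 2, without either C3 library or with low values raised to the limit. Gch1, the first enzyme of tetrahydrobiopterin synthesis, was called in none of the 5 comparisons.

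Over the 4 arginine and polyamine lists, 19 of 41 tested genes were called in B relative to A, 13 higher and 6 lower, where 26.9% of all genes were called. In C1 relative to B the count was 9 of 41, 1 higher and 8 lower, where 33.7% of all genes were called. It was 11 of 41 in C2 relative to C1 (7 higher, 4 lower), where 20.4% were called. It was 20 of 41 in C3 relative to C2 (7 higher, 13 lower) and 19 of 41 in C3 relative to C1 (9 higher, 10 lower), where 27.9% and 34.8% of all genes were called in the last pair of comparisons. For C2 relative to C1 the count was 7 without C1 replicate 2 or without C2 replicate 1. For C3 relative to C2 it was 13 without C2 replicate 2 and 12 without C3 replicate 1. For comparison, the members past the same thresholds were 2 of 5 tested in B against A (Arg1 and Wfdc17, higher) and 3 of 5 in C1 against B (Arg1, Nos2 and Wfdc17, lower); nothing is read from these counts, since those contrasts chose the genes, and 14.5% of all genes were higher in B than in A and 21.1% lower in C1 than in B.

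Marks of alternative and of classical macrophage activation were both higher in B. Of 24 listed genes of alternative activation besides Arg1 and Retnla, 14 were tested, and 7 rose in B relative to A with none lower. Of 20 genes of classical activation besides Nos2, 12 were tested, and 5 rose with none lower, where 14.5% of all genes rose. Over both lists the median difference was 1.71, against 0.01 over all genes. Of the 12 that rose, Cd163, Clec10a, Il10, Il10ra, Cd40, Cd86, Il1b and Tnf passed the filter on low values only through the B libraries. Such genes could hardly come out lower in B, so these counts and this median were partly set by the filter. The macrophage markers were high in the same libraries, and their part in these values was not tested. Mrc1, the mannose receptor, rose in B relative to A by 8.07 ± 1.30 (limma, adjusted p = 0.00312), with values relative to its median of 10.83 and 10.65 in B against 0.36 and 4.98 in A. Cd163, a scavenger receptor, averaged 46.7 normalized reads in B with both A libraries at the floor, and Il10 averaged 14.1 in B, again with A at the floor. Of the classical marks, Cd86, a costimulatory receptor, averaged 216 normalized reads in B against 1.46 in A, under the limit there. Il1b averaged 92.6 against 1.46 and Tnf 78.3 against 6.25. Cd163, Il10, Cd86, Il1b and Tnf passed the filter through the B libraries alone, so no p is given for them. Fitted on the 4 libraries of B and A alone, the calls of Mrc1, Il10ra, Cd40 and Tnf were lost, with adjusted p of 0.0612 for Mrc1, and that of Tnf also without B replicate 2. The calls of Il10ra, Cd40 and Tnf, genes that passed the filter only through B, were lost after quantile normalization too. That of Il10ra was also lost without either B library. The chitinase-like marks Chi3l3 and Chi3l4, Ccl22, Il13 and the interferon-induced chemokine Cxcl9 were at a single value in every library, as Retnla was, and Ccl17, Ccl24, Mgl2, Il12a, Il12b and Irg1 were among 13 genes below the filter.

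In C1 relative to B, 14 of the 26 tested activation genes fell and 1 rose (Hif1a), with a median difference of -2.39 against -0.07 over all genes, of which 21.1% fell. The genes that passed the filter only through B could hardly come out higher in C1, so this count and median were partly set by the filter. Mrc1 fell by 11.91 ± 1.30 (limma, adjusted p = 0.000432), and Cd163, Il10ra, Cd86, Il1b and Tnf were at the floor in both C1 libraries. Other marks rose in C3 relative to C1. Cxcl10, an interferon-induced chemokine, had 5.57 and 4.47 relative to its median in C3, against -1.93 and -0.94 in C1, a rise of 6.46 ± 0.77 (adjusted p = 0.000544). Ptgs2, cyclooxygenase 2, rose in C3 relative to C1 by 4.16 ± 0.66 (adjusted p = 0.00195). It was not called in C3 relative to C2 (1.35, adjusted p = 0.141). In C2 relative to C1 it rose by 2.81 (adjusted p = 0.0173), a call lost without C1 replicate 2 or without either C2 library. Nos2 was at the floor in C3, which stands for about 3.86 and 5.03 reads there. Cebpb fell in C3 relative to C1 by 2.28 ± 0.46 (adjusted p = 0.00522) and Klf4 rose by 1.77 ± 0.18 (adjusted p = 0.000237). Of the 26 genes, 4 were called in C2 relative to C1, 6 in C3 relative to C2 and 9 in C3 relative to C1, where 20.4%, 27.9% and 34.8% of all genes were called. The first of these counts was 2 without C1 replicate 2 or without either C2 library.

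The genes whose values ran closest to each member over the 10 libraries were found by the root mean square difference of values centred on their mean, on the log2 scale, as a description. Nearest to Arg1 were Hk3, a hexokinase of myeloid cells, at 0.71, Lilrb4 at 0.75 and Rgs1 at 0.76, where the median over all tested genes was 5.33. Nearest to Wfdc17 were Atp6v0d2, a subunit of the vacuolar proton pump, at 0.44, Mmp12, macrophage elastase, at 0.62 and Il21r at 0.81, with a median of 4.94. Nearest to Nos2 were Fam83f at 0.28, Traf1 at 0.32 and Gldn at 0.35, with a median of 2.45. For Ass1 they were Slc25a37 at 0.25, Gclc at 0.33 and Galnt2 at 0.35, with a median of 0.94, and for Odc1 they were Taf4b at 0.24, F11r at 0.33 and Rrp12 at 0.34, with a median of 1.25. These libraries share their depths and normalization, and genes at the floor in the same libraries lie close for that reason alone.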

How the data were processed

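RNA from 10 libraries of mouse left atrial appendage cells was measured with the Illumina TruSeq v2 kit, which does not mark strand, so reads of a gene and of an overlapping antisense gene cannot be told apart. Per the submitters' processing notes, TopHat, DESeq and mm10 were used, with no version or role given; the read counter and annotation were not given in the sources used here. In the deposited table the values are on a log2 scale with each gene's median at 0, which held for all 17821 genes that vary. The rest of the reading was inferred from the values: normalized reads, set to at least 1 before the log was taken. It is not certain, since between 32.9% and 70.6% of low values fell within 0.01 of a whole number of reads. Another 18334 genes had a single value and 17 held a cell that a spreadsheet had turned into a date; both kinds were left out.

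Genes of known level (4762) had to reach 10 normalized reads in at least 2 libraries, which removed 3567. The remaining 14254 were fitted with limma 3.58.1 in R 4.3.3 on the values as deposited, with no pseudocount, a mean for each type and 5 residual degrees of freedom. Each of the 5 comparisons had its own Benjamini-Hochberg adjustment over these genes. A call, on which the words rose and fell rest, took an adjusted p under 0.05 and a log2 difference of at least 1; other errors are SDs over 2 libraries. The fit was tested on simulated data. The members and gene lists were chosen with earlier results of these data known. From each list and comparison, the rule named up to 4 called genes with the largest difference; genes named beyond it were chosen after their values were seen. Alternatives covered the filter, scaling, low values, the libraries in the fit and a replicate block. Gene positions are from GENCODE M21 on GRCm38, the same assembly as mm10.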

Additional observations from a re-analysis of the deposited data

How the results depend on the processing

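Only the comparison of B with A lost a large part of its calls under another setting: fitted on its own 4 libraries it called 2538 genes, against 3835 in the fit of all 10. With single libraries left out, the arginine and polyamine genes called ranged from 7 to 13 in C2 relative to C1 (11 with all) and from 12 to 22 in C3 relative to C2 (20 with all), and the activation genes called in C2 relative to C1 from 2 to 6 (4 with all). The calls of members among the passaged types ranged from 2 to 5 (3 with all), with 5 also when both A libraries were left out, an alternative chosen after seeing the data. The Odc1 calls held under every alternative run, with adjusted p (limma) of 0.00347 to 0.0364 in C3 relative to C2 and 0.00107 to 0.0247 in C3 relative to C1. The Ass1 difference between C3 and C2 was called after quantile normalization (1.34, adjusted p = 0.0499). Quantile normalization also took the B minus A differences to 6.85 for Arg1 and 5.40 for Wfdc17. Of 99 calls of named list genes, 65 held under every alternative and 34 were lost under at least 1. No result changed direction past the test. Replicate numbers did not pair the libraries: the correlations of the replicate differences between types lay between -0.0609 and 0.0893. With the number as a replicate block, 3814 genes were called in B relative to A and 3937 in C3 relative to C2, and the member calls remained 3 in number. The block ended the calls of Slpi and Cd40 in C2 relative to C1. With 2 libraries a type and an 11.5-fold range of depth, differences of a few reads, as in Arg2 and in the low values of Arg1, Nos2 and Wfdc17, were not detectable.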

Other observations

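Mtap, the polyamine salvage gene with the largest fall in culture, lies beside Cdkn2a and Cdkn2b, inhibitors of the cell cycle, on mouse chromosome 4 (GRCm38, Mtap at 89137122 to 89181081, Cdkn2a at 89274471 to 89294653 and Cdkn2b at 89306299 to 89311039). These neighbours were looked at after the Mtap values were seen, so they are given with no test. Within 0.5 Mb of the start of Mtap, 5 of 57 annotated genes passed the filter. Cdkn2a had log2 values relative to its median of 0.34 and 0.66 for C1, -2.90 and -3.56 for C2, and -8.45 and -7.81 for C3. Cdkn2b had 102 and 170 normalized reads for C1 and 6.12 and 13.5 for C2, with C3 at the floor in each library. The difference C3 minus C1 was -5.45 for Mtap and -8.63 for Cdkn2a, against 0.16 for Klhl9 and -0.80 for Gm13285, the other 2 tested genes of the window, which lie on the far side of Mtap. In the primary cells, Cdkn2a had -0.19 and 0.19 in B and 0.35 and 0.48 in A, and Cdkn2b had 142 and 143 normalized reads in B and 627 and 337 in A.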
